A study of Mus musculus with 2 samples.

Results

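The Hedgehog pathway genes described here are Shh, Ihh, Ptch1, Hhip, Smo, Sufu, Gli1, Gli2 and Gli3, 9 of the 30153 gene names on the array. Every non-control spot that the array design assigned to one of these names was read, which gave 23 spots of 14 probes, each 60 bases long. 5 of the genes had 2 probes and 4 had 1 probe.

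The 2 arrays, 1 per group, held RNA of mature hepatocytes (MHs) of healthy mice and RNA of Sox9+EpCAM- cells of mice with injured livers. The injury was caused by feeding mice with DDC, a compound that damages bile ducts, and the sorted cells are called biphenotypic hepatocytes because they carry traits of hepatocytes and of cholangiocytes. Both cell types came from Sox9-EGFP mice, in which EGFP reports Sox9 expression. MHs were collected on a Percoll gradient and were not sorted, whereas Sox9+EpCAM- cells were sorted by FACS as GFP-positive cells without EpCAM, so the diet, the reporter gate and the isolation differed together between the arrays and cannot be told apart. Both samples were labelled male; for these arrays, the age and number of mice and the length of feeding are not given in the sources used here. Each library held RNA that went against its label, Xist in the one labelled MH and Epcam in the one labelled Sox9+EpCAM-, with the values given beside the markers, and the groups are named here by their labels.

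Hedgehog ligands are secreted proteins that bind the receptor Ptch1. Without ligand, Ptch1 keeps the membrane protein Smo inactive. With ligand, Smo gathers in the primary cilium, the inhibitor Sufu releases the Gli proteins, and Gli transcription factors turn on target genes, of which Gli1, Ptch1 and Hhip are the classical ones. In the liver, bile duct cells, stellate cells and fibroblasts are known to take part in Hedgehog signalling during injury, and hepatocytes are usually described as having few or no primary cilia.

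Each value is the fluorescence of a spot after background subtraction, given as the intensity with the error that the Feature Extraction software assigned to it. This error is technical. With 1 array per group there is no SD between samples and no test, and precision is limited by this number of arrays. Differences are log2 values of Sox9+EpCAM- minus MH after each array was divided by its 75th percentile, 741 for MHs and 1110 for Sox9+EpCAM- cells, so equal intensities give a difference below 0. Where an array did not read a probe well above background, the level is only a bound: the larger of the probe's signal and the array's lowest signal well above background, 27.8 for MHs and 18.4 for Sox9+EpCAM- cells. A bound under 1-fold entered counts and medians as 0. Where a gene had 2 probes, the probe with the higher mean log2 level over both arrays stood for the gene, and 4-fold was the rule of size. RNA of many cells was measured together, so fewer cells expressing a gene and less RNA per cell cannot be told apart. Probe positions are those of the array design on mm9, and exon and UTR annotation of that build was not used here.

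Of the 14 probes, 7 were well above background in both samples, 2 in Sox9+EpCAM- cells alone, 1 in MHs alone and 4 in neither. Shh was measured in MHs only. Smo and Sufu each had 1 probe past 4-fold and another that pointed the other way, and so did Ptch1 with smaller differences. Ihh and Gli1 differed by less than 2-fold, and Hhip and Gli2 were not well above background on either.

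**Figure D1:**
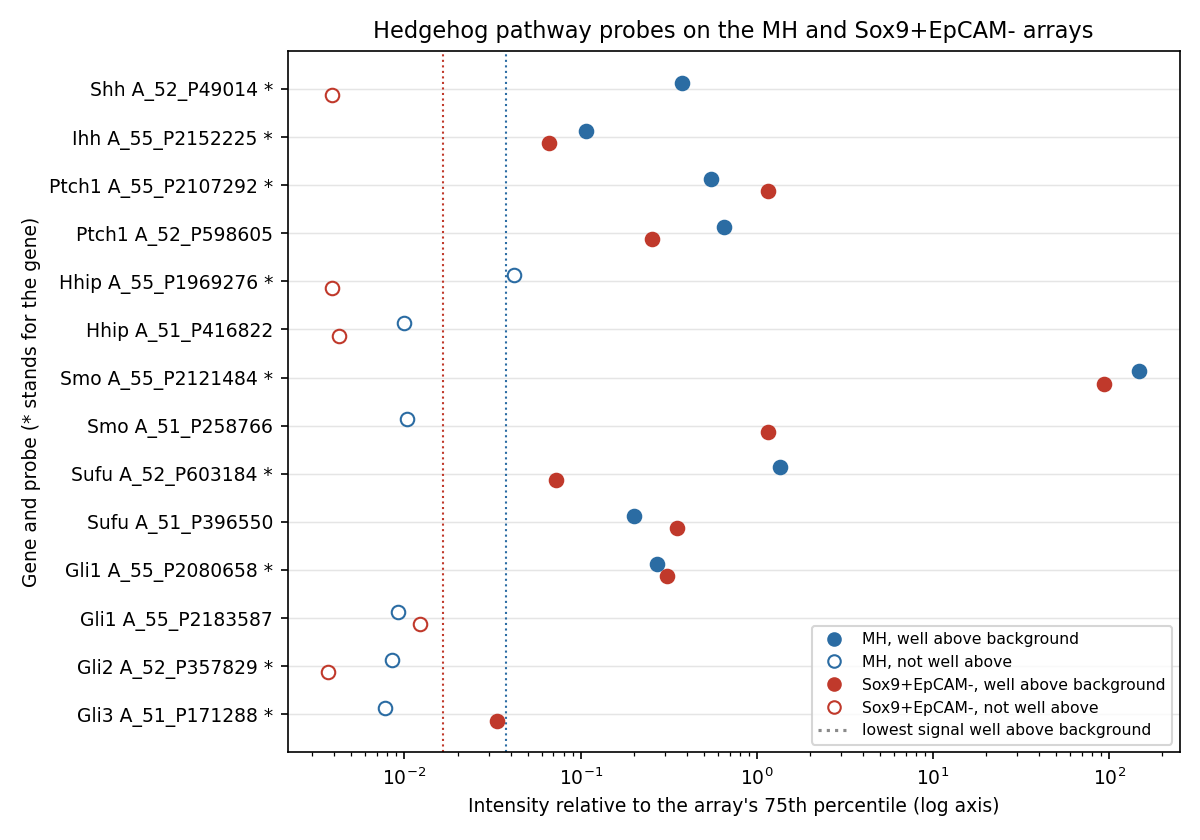
Intensity of each of the 14 probes for MHs (blue) and for Sox9+EpCAM- cells (red), relative to the 75th percentile of the array, on a log axis. Filled points were well above background, open points were not, and dotted lines mark the lowest signal well above background on each array. Shh is filled for MHs only, while 1 probe of Smo and the probe of Gli3 are filled for Sox9+EpCAM- cells only.

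Of the ligands, Shh (Sonic hedgehog) was measured in MHs only. Its single probe lies at chr5:28783983-28784042 on the minus strand and was printed 10 times on each array. Its first 30 bases are shown because the whole Shh result rests on this sequence.
Shh A_52_P49014: aatttattattgtgtgaactgtactcacag
The 10 spots on the MH array read between 248 and 312, with a mean intensity of 278 and an SD of 0.10 on the log2 scale. The 10 spots on the Sox9+EpCAM- array read between 3.84 and 4.82, with a mean of 4.28, and the probe was not well above background there. The spots of the arrays did not overlap, and the difference was far larger than the spread between spots, which does not include variation between mice. Relative to MHs, Shh in Sox9+EpCAM- cells was at least 22.6-fold lower (log2 difference -4.50 or below), with -2.72 when the background was corrected with normexp, which adds an offset of 50.

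Ihh (Indian hedgehog) had 1 probe, at chr1:74991906-74991965 on the minus strand, and was dim on both arrays. The intensity was 79.4 ± 10.9 for MHs and 73.3 ± 8.81 for Sox9+EpCAM- cells. After scaling the difference was -0.70 ± 0.26, a size of 1.62-fold.

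Ptch1, the receptor that holds Smo inactive and is itself a Gli target, had 2 probes that moved apart. The probe with the higher mean was designed on the RefSeq transcript and lies at chr13:63612879-63612938. The other was designed on an Ensembl transcript and lies at chr13:63610298-63610357, and both are on the minus strand. The sequences are shown because they read different stretches of the gene and gave opposite differences.
Ptch1 A_55_P2107292: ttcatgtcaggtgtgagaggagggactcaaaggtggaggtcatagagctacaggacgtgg
Ptch1 A_52_P598605, bases 1 to 30: catttggatgttttaatttgtaaaagaaaa
The probe of the RefSeq transcript read 405 ± 40.9 for MHs and 1280 ± 128 for Sox9+EpCAM- cells, a difference of 1.08 ± 0.21, or 2.11-fold higher. The probe of the Ensembl transcript read 483 ± 48.8 for MHs and 282 ± 28.5 for Sox9+EpCAM- cells, a difference of -1.36 ± 0.21, or 2.57-fold lower. Neither probe passed 4-fold. Each difference was larger than its software error, and their signs were opposite under each of the 5 other scalings and background corrections, so no single direction can be given for Ptch1.

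Hhip, a membrane protein that binds Hedgehog ligands and keeps them from Ptch1, was not well above background with either probe. The probe at chr8:82494280-82494339 read 31.1 ± 7.32 for MHs and 4.32 ± 4.30 for Sox9+EpCAM- cells. The probe at chr8:82490729-82490788 read 7.37 ± 7.34 and 4.73 ± 4.72. A difference in Hhip was therefore not detectable on these arrays.

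Smo, the transducer of the signal, gave the widest disagreement between probes among the members. Both probes lie on the plus strand of chromosome 6 in the same RefSeq transcript, at chr6:29710919-29710978 and chr6:29711225-29711284. Up to 30 bases of each are shown because the sequences differ in kind. In the first, which gives bases 17 to 46 of the probe, capitals mark 13 bases in which A and C alternate. The second has no such run.
Smo A_55_P2121484: acacacagACACACACACACAtacactctc
Smo A_51_P258766: aatgtctagtcattttcatagtgccccaca
The repeat probe was very bright on both arrays, at 110000 ± 11000 for MHs and 104000 ± 10400 for Sox9+EpCAM- cells, an unscaled ratio of 0.945. Its difference was -0.66 ± 0.20, and by its brightness it stood for the gene. The other probe read 7.65 ± 7.65 for MHs, where it was not well above background, and 1290 ± 129 for Sox9+EpCAM- cells. By this probe the Smo level of Sox9+EpCAM- cells was at least 31.0-fold higher than that of MHs (log2 difference 4.95 or above), with 3.09 when the background was corrected with normexp. The distance between the 2 differences was at least 5.62 on the log2 scale, since 1 of them is a bound. Of the 5336 genes with 2 or more probes with a difference or bound, only 0.6% had a distance of 5.62 or more.

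**Figure D2:**
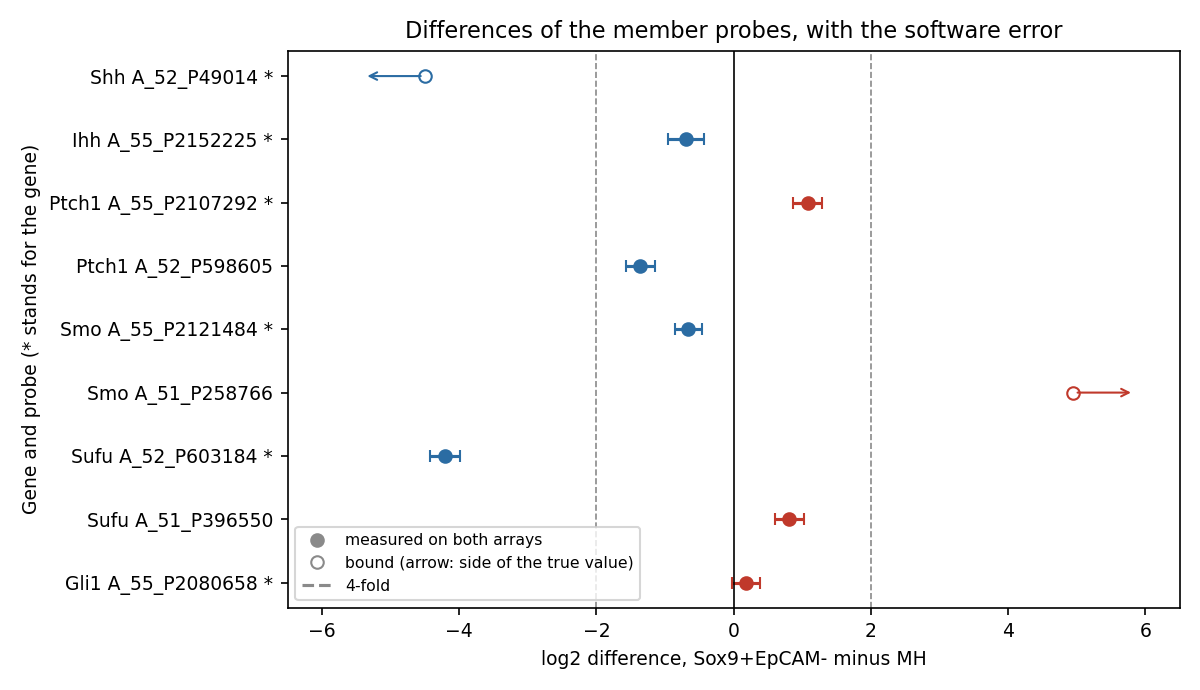
log2 difference, Sox9+EpCAM- minus MH, of the 9 member probes with a difference or a bound of 1-fold or more. Bars are the software error of the difference, open points with arrows are bounds, and dashed lines mark 4-fold. The pairs of points for Ptch1, Smo and Sufu lie on opposite sides of 0.

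The bright Smo probe was compared with the other probes that hold such a repeat, because its level and its ratio were unlike those of the second probe. The letters ACACACACACAC or the same run begun at C, and GTGTGTGTGTGT or the same run begun at T for the other strand, were searched in all 39390 probes without mismatch. They occur in 163 probes, 0.414% of the probes, with the A and C run in 55 and the T and G run in 109, so 1 probe holds both. All 163 were well above background on both arrays, against 61.4% of all probes. Of these probes, 76.7% were among the brightest 1% for MHs and 75.5% for Sox9+EpCAM- cells. Their median unscaled ratio was 0.998, against 1.32 for all probes well above background on both arrays. Their differences were also much alike, with a median of -0.59, a range of -0.89 to -0.36 between the 5th and 95th percentiles and an SD of 0.20, against an SD of 1.20 for all probes well above background on both arrays. 0 of the 163 differed by 4-fold. The value of the Smo probe lay within this range, and it shares a stretch of 20 bases with a Dusp7 probe and, on the opposite strand, with probes of Kcna4 and 2310002F09Rik. Whether the repeat sets the signal of the Smo probe was not tested. When probes with the repeat were left out, the second probe stood for Smo and its bound of 4.95 was the value of the gene.

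**Figure D3:**
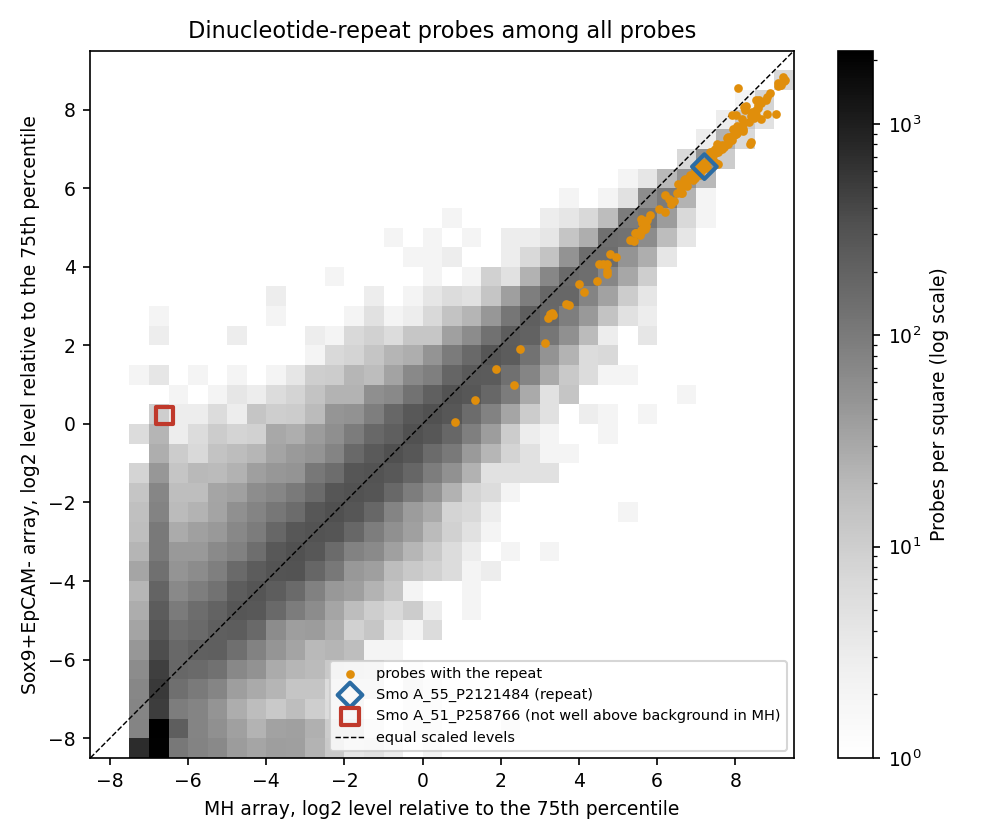
log2 level of probes on the Sox9+EpCAM- array against the MH array, each relative to the 75th percentile. Grey squares count all probes on a log scale, orange points are the 163 probes with a run of A and C or of T and G, and the outlined symbols are the 2 Smo probes. The orange points follow a narrow band just under the line of equal levels, with the Smo repeat probe in it, and the other Smo probe lies far above the line.

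Sufu, the inhibitor that binds Gli proteins in the cytoplasm, also had probes on both sides of 0. Both were designed on the same RefSeq transcript, on the plus strand of chromosome 19, at chr19:46529259-46529318 and chr19:46558091-46558150, starting at bases 1132 and 1485 of it. They are shown whole, since neither holds a dinucleotide repeat and neither shares 20 bases with a probe of another gene.
Sufu A_52_P603184: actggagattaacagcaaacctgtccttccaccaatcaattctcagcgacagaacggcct
Sufu A_51_P396550: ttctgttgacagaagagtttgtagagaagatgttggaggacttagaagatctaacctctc
The upstream probe read 1000 ± 100 for MHs and 80.8 ± 9.29 for Sox9+EpCAM- cells, a difference of -4.21 ± 0.22, or 18.5-fold lower. The downstream probe read 149 ± 16.1 for MHs and 390 ± 39.2 for Sox9+EpCAM- cells, a difference of 0.81 ± 0.21, or 1.75-fold higher. The upstream probe stood for the gene because its mean level was higher, and with the other probe the direction of Sufu turned. The probes lay 5.02 apart, a distance reached by 1.0% of the 5336 genes.

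Gli1, the activator whose level is commonly read as a sign of pathway activity, had 2 probes. The probe at chr10:126775021-126775080 was designed on an Ensembl transcript and read 201 ± 21.4 for MHs and 342 ± 34.5 for Sox9+EpCAM- cells. Its difference of 0.18 ± 0.21 was smaller than the software error. The probe of the RefSeq transcript, at chr10:126766967-126767026, read 6.82 ± 6.82 and 13.6 ± 4.73 and was not well above background on either array, so the 2 designs disagree on whether Gli1 RNA was detected at all. This dim probe shares 20 bases with the opposite strand of a probe of Arhgap9. Gli2, the main activator downstream of Smo, had 1 probe at chr1:120731255-120731314 that read 6.26 ± 6.23 and 4.10 ± 4.09, not well above background on either array. Gli3, which acts largely as a repressor, had 1 probe at chr13:15821502-15821561. It read 5.78 ± 5.76 for MHs, not well above background, and 37.2 ± 5.25 for Sox9+EpCAM- cells, where it was. After scaling, the Sox9+EpCAM- level was 0.0335 of the 75th percentile. It lay under the lowest MH signal well above background, 0.0375, so no fold can be given.

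By the probe that stood for each gene, 0 of the 7 members with a difference or bound were at least 4-fold higher than in MHs, where 5.59% of all genes were. 2 of the 7, Shh and Sufu, were at least 4-fold lower, where 5.57% of all genes were. The median over the 7 was -0.66, against -0.04 over the 23417 genes with a difference or bound. That median is the value of the Smo repeat probe, and it was -0.07 after quantile normalization and 0.00 with repeat probes left out. The 0.00 is the value entered for Gli3, a bound under 1-fold, and not a measured difference. Counted by probe, 1 of 10 was at least 4-fold higher, of Smo, where 6.24% of all probes were, and 2 of 10 were at least 4-fold lower, where 5.74% were. Over all genes, 1309 were at least 4-fold higher and 1304 lower. Scaled to Gapdh these counts became 1650 and 1006. That scaling shifted the median over genes measured in both samples by 0.27, while the deposited table shifted it by -0.18, but each member probe with a difference or a bound of 1-fold or more kept its sign under each scaling. Gli3, entered as 0, was above 0 when scaled to Gapdh.

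3 members had 2 probes with a difference or bound, and in 3 of these 3 the probes lay on both sides of 0 and at least 4-fold apart. Among the 5336 genes with 2 or more such probes, 38.2% had probes on both sides of 0 and 19.0% had probes at least 4-fold apart. The distance for Ptch1, 2.44, was reached by 13.3% of these genes, and the median distance was 0.85. The direction of Ptch1, Smo and Sufu thus depends on which probe is read.

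Of the other genes of the pathway, 38 were on the array and 37 had a difference or bound. 3 were at least 4-fold higher in the sorted cells and 0 were lower, and the median was 0.01, close to that of all genes. Of all genes, 5.59% were that much higher and 5.57% that much lower, so the count of 3 in 37 is near the share of all genes. Under the other scalings the median ran from -0.15 to 0.28. 2 of the 3 act in the release of ligand. Disp1, the transporter that frees the lipid-modified ligand from the producing cell, read 50.7 for MHs and 616 for Sox9+EpCAM- cells, a difference of 3.02 ± 0.27. Scube3, of a family of secreted proteins that help release the ligand, read 62.2 and 523 with the probe that stood for it, a difference of 2.49 ± 0.25. The second Scube3 probe gave -0.11 ± 0.24, with 75.5 and 105, and the third gave a bound of 1.80 or above. The remaining gene was Efcab7, a partner of the Evc proteins that relay the signal from Smo at the cilium. It was at least 7.66-fold higher with 1 probe, at 5.90 for MHs and 319 for Sox9+EpCAM- cells, while the other probe was not well above background on either array. Among probes that did not stand for their gene, those of Evc (-4.25 or below) and Ulk3 (-3.32 or below) passed 4-fold downwards and those of Prkacb (2.56), Prkar1a (3.76 or above), Gsk3b (2.35 or above) and Csnk1e (3.08 or above) upwards, and with the median of all probes 1 gene of the list was at least 4-fold lower.

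By role, 2 of 7 genes of the ligand and its release, 0 of 4 receptors and co-receptors with a difference or bound, 1 of 11 genes of transduction at the cilium and 0 of 15 genes of Gli phosphorylation and turnover were at least 4-fold higher, beside 5.59% of all genes, and 0 in each role were lower, beside 5.57%. The first of these groups, which holds the ligand Dhh, spanned -1.45 or below, a bound, to 3.02. The fifth receptor on the array, the scavenger receptor Lrp2, was not well above background on either array.

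Smo and the Gli proteins act at the primary cilium, so its genes were read too. Of 43 cilium genes on the array, 39 had a difference or bound, 6 were at least 4-fold higher in the sorted cells and 0 were lower, beside 5.59% and 5.57% of all genes, and the median was 0.28. With normexp 3 were higher, and 1 was lower after quantile normalization or in the deposited table. The 6 included Arl13b, a small GTPase of the ciliary membrane, at 271 and 2300 (2.50 ± 0.21), and Pkd2, a ciliary channel, at 142 and 1300 (2.61 ± 0.21). They also included genes of the transition zone at the base of the cilium. Mks1 read 61.0 and 401 (2.13 ± 0.25) and Tmem67 42.3 and 290 (2.19 ± 0.33), while the second Tmem67 probe, at 6.86 and 4.34, was not well above background on either array. Rpgrip1l was at least 4.56-fold higher, at 15.3 for MHs, not well above background, and 190 for Sox9+EpCAM- cells. The list did not move as one. Bbs9, of the complex that carries membrane proteins into the cilium, was the lowest at -1.94 ± 0.21, with 503 and 197.

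Of 28 reported Gli target genes outside the members, 23 had a difference or bound, with 2 at least 4-fold higher, 1 lower and a median of 0.00. Of all genes, 5.59% were higher and 5.57% lower by that size, shares that for 23 genes come close to these counts. The median of 0.00 is the 0 entered for bounds under 1-fold, not a measured difference. With only probes measured on both arrays the median was -0.16, and 0 genes were at least 4-fold higher. Sfrp1, a secreted Wnt inhibitor, was at least 57.2-fold higher, at 22.2 for MHs, not well above background, and 2380 for Sox9+EpCAM- cells. Ccne1, a cyclin of the step into DNA synthesis, was at least 8.91-fold higher with 1 probe, at 20.6 and 371, and at least 1.28-fold higher with the other. Ccnd2, a cyclin of early division, read 444 and 160, a difference of -2.06 ± 0.21 that was under 4-fold when scaled to Gapdh or with normexp. Many of these genes are known to have other regulators as well.

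**Figure D4:**
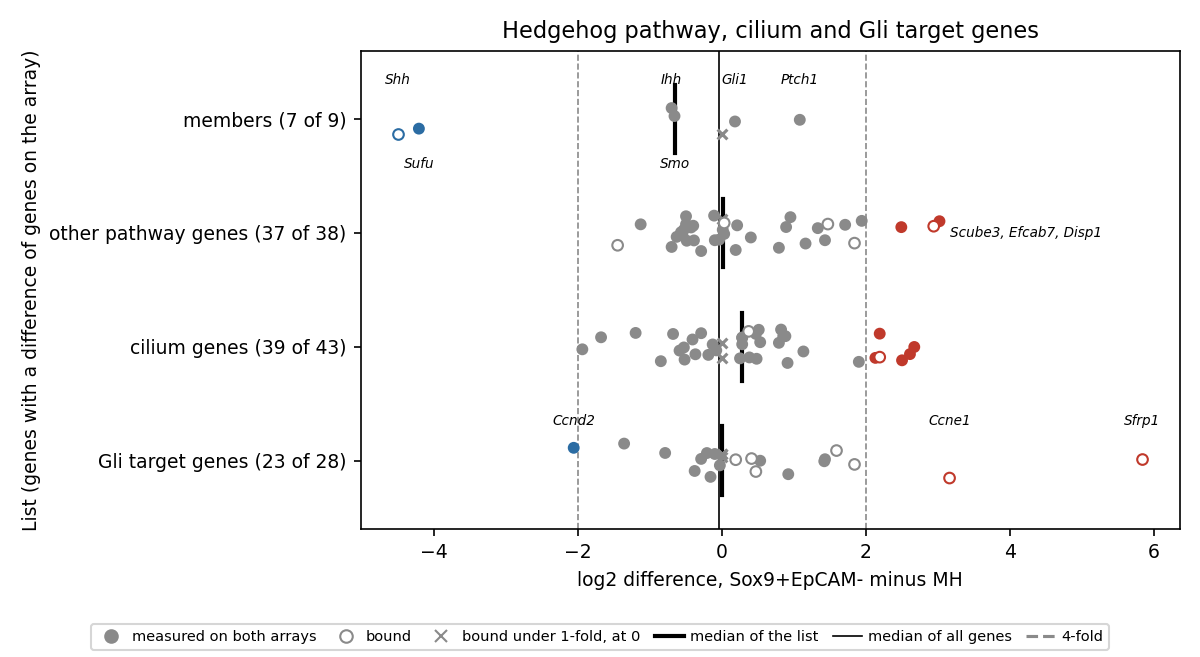
log2 difference, Sox9+EpCAM- minus MH, of each gene with a difference or bound in the 9 members, the other pathway genes, the cilium genes and the Gli target genes. Open points are bounds, crosses are bounds under 1-fold placed at 0, thick bars are list medians, the thin line is the median of all genes and dashed lines mark 4-fold. Shh and Sufu lie left of the 4-fold line, and the genes past 4-fold in the other lists lie to the right except Ccnd2. Genes past 4-fold are named except in the cilium list.

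Several cell types of the liver carry Hedgehog components, so markers were read on the same arrays. Each of 15 hepatocyte markers was lower in the sorted cells, except that 1 was higher when scaled to Gapdh and 2 after quantile normalization. The median was -1.11 and 5 were at least 4-fold lower, from Cyp3a11 at -8.58 to Hnf4a at -0.23. All 15 stayed well above background there. Of 14 cholangiocyte markers, 4 were at least 4-fold higher, with Cd24a at 7.54 or above and Aqp1, the lowest, at -1.37. Tspan8 was not well above background on either array, and Sox9 and Cd24a were not for MHs. Sox9, whose reporter was the sorting gate, read 8.52 for MHs and 60.2 for Sox9+EpCAM- cells. Epcam, against whose protein the cells were sorted with an antibody, read 139 for MHs and 2770 for Sox9+EpCAM- cells, 13.3-fold higher. This RNA level goes against the gate, which read protein and not RNA. The cause was not tested.

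Of 17 stellate cell and fibroblast markers, 7 were at least 4-fold higher and 1 was lower, from Lrat at -2.95 or below to Eln at 7.06 or above, while Pdgfrb was not well above background on either array. The summed level of this list, relative to the 75th percentile, was 13.4 for MHs and 56.8 for Sox9+EpCAM- cells, or 2.54 and 43.3 without Dcn, the gene with the highest level summed over both arrays. That of the cholangiocyte list was 4.42 and 61.1, or 4.07 and 18.8 without Spp1. Both sums were higher in the sorted cells. Endothelial markers went the other way, with 5 of 10 at least 4-fold lower (Clec4g the lowest at -3.55, Flt1 the highest at 0.56, Lyve1 not well above background on either array) and sums of 8.64 and 3.09. Of 13 leukocyte markers 6 were at least 4-fold lower, with Clec4f the lowest at -6.43, and 1 was higher, Cd68 at 3.85, with sums of 151 and 80.0. These sums were carried by Itgam, whose probe holds the dinucleotide repeat described for Smo, and without it they were 26.6 and 3.71. Of 5 erythroid markers 3 were at least 4-fold lower, from Hbb-b2 at -4.26 or below to Alas2 at -2.10, with Hbb-b1 not well above background on either array and sums of 4.12 and 0.493. The hepatocyte sums were 1696 and 739. These 4 sums were lower in the sorted cells. The part of other cells in the member values was not tested.

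The sex genes went against the labels. Xist, expressed in cells with an inactive X chromosome, was measured in MHs only, at least 158-fold above Sox9+EpCAM- cells. The Y-linked genes Ddx3y, Kdm5d, Uty and Eif2s3y were well above background in Sox9+EpCAM- cells only, by at least 15.4-fold, 11.8-fold, 4.83-fold and 3.36-fold. Both samples were labelled male, and the library labelled MH went against that label. Sex therefore also differed between the arrays and cannot be told apart from the diet and the sort in any member difference.

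**Figure D5:**
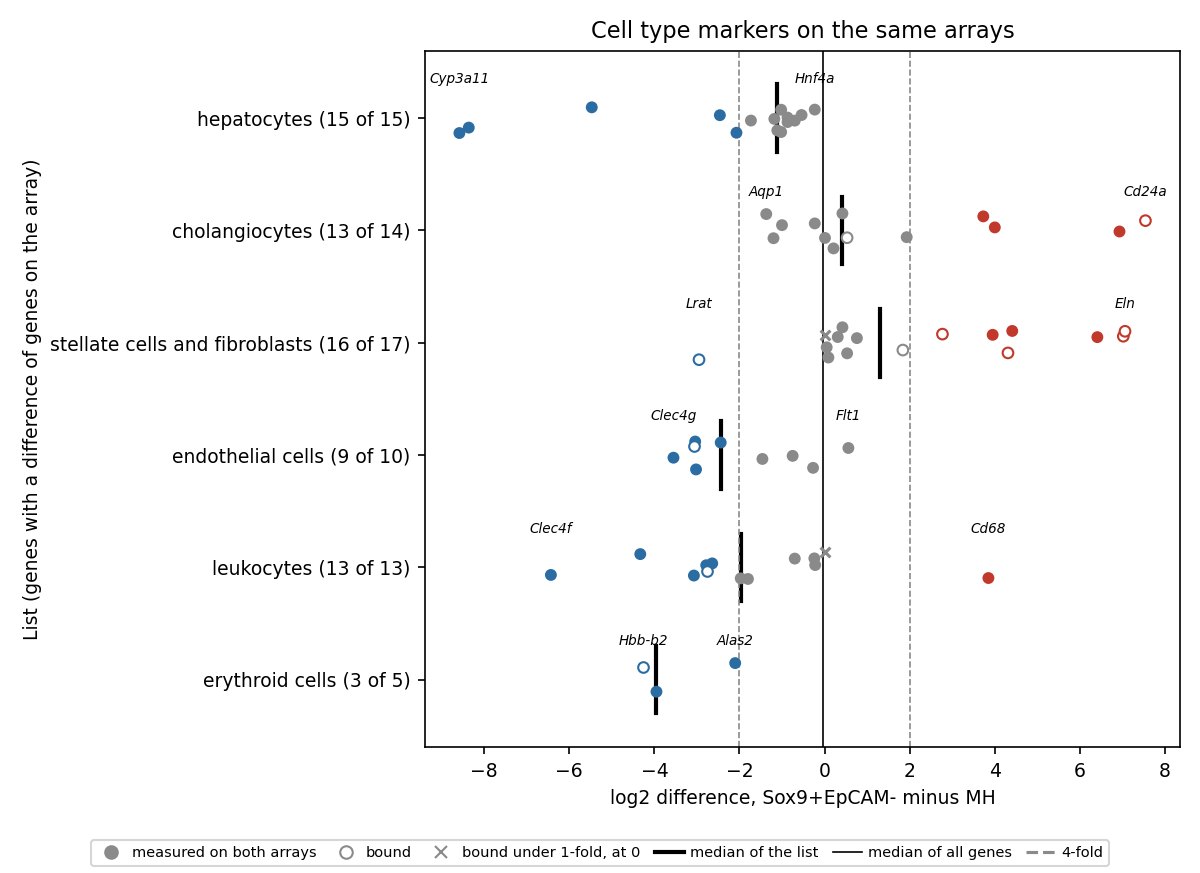
log2 difference, Sox9+EpCAM- minus MH, of the markers of 6 cell types on the same arrays, with the highest and lowest gene of each list named. Open points are bounds, crosses are bounds under 1-fold placed at 0, thick bars are list medians and dashed lines mark 4-fold. Hepatocyte, endothelial, leukocyte and erythroid markers lie mostly left of 0, stellate cell and fibroblast markers mostly right of it.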

How the data were processed

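RNA of 2 samples was hybridised in 1 colour to Agilent mouse arrays on 1 slide. The authors deposited, per the file headers, each spot's processed intensity from Feature Extraction 10.7.3.1, with background subtracted and no normalization between arrays, with its error, mean and background intensity and flags. A second table that the authors deposited holds ratio values, each the processed intensity divided by the array's median over spots that are not controls (SD of the log2 factor 0.0018).

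Of 43020 such spots, 27523 were well above background for MHs and 32158 for Sox9+EpCAM- cells, and 0 were saturated. For probes printed at least 8 times the median SD between spots was 0.08 (log2) on each array. Spots with an outlier flag were removed, and repeated spots averaged on the log2 scale. Of 30153 genes, 19235 were detected well above background in both samples, 3610 for Sox9+EpCAM- cells only, 572 for MHs only and 6736 on neither. Software errors were propagated to the log2 difference.

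Named were the members with every probe, genes of the pathway, cilium and target lists at least 4-fold different, the highest, lowest and undetected markers, genes sharing 20 bases with a member probe, and sex genes, except that 1 cilium gene and 1 erythroid marker are counted but not reported here by name; Bbs9, Epcam, Dcn, Spp1, Itgam and pathway genes past 4-fold by another probe were added after their values were seen. The members and lists were chosen with earlier results of these data known, and the repeat was noticed in these data. Ift43 of the cilium list matched no name on the array. The procedure was tested on simulated data.

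Alternatives were normexp on mean and background intensities (limma 3.58.1, R 4.3.3, offset 50), scaling to the detected probes' median or to Gapdh, quantile normalization, the median of all probes, outliers kept, the deposited table, no bound, only probes measured on both arrays and a 2-fold rule, with the dimmest measured probe and leaving out repeat probes or the gene with the highest level over both arrays in a marker sum added after the data were seen. Python 3.11.15, numpy 2.4.6 and pandas 2.3.3 were used.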

Additional observations from a re-analysis of the deposited data

How the results depend on the processing

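With 1 array per group, no slide block and no left-out replicate could be had, and signal over background limited Hhip, Gli2 and Gli3. Of the alternatives set at the start, 144 values stayed within 1.5-fold (counts within 1.5 times) and 36 did not; of those added later, 9 did and the rest did not. The choice of probe turned the direction of Ptch1, Smo and Sufu. No paired analysis was possible because the groups hold 1 array each. The causes were not tested unless the construction shows them. Shh became -2.72 with normexp, which compresses dim signals, and -6.60 with no bound. Smo became -0.07 with quantile normalization, 2.14 with the median of all probes and 4.95 with the dimmest measured probe or with repeat probes left out. Ptch1 became -0.14 with the median of all probes and -1.36 with the dimmest. Sufu became -3.34 with normexp and -1.70 with the median of all probes, and turned to 0.81 with the dimmest. The count of members at least 4-fold higher, 0, became 1 with the median of all probes, no bound, the dimmest probe, repeat probes left out or a 2-fold rule, and the count lower, 2, became 1 with the median, the dimmest or only probes measured on both arrays. Other pathway genes higher, 3, became 1 with normexp, 5 with Gapdh or no bound and 10 with 2-fold; lower, 0, became 1 with the median or no bound and 2 with 2-fold. Cilium genes higher, 6, became 3 with normexp; lower, 0, became 1 with quantile or the deposited table and 3 with 2-fold. Gli targets higher, 2, became 1 with normexp or the median, 5 with no bound, 0 with only probes on both arrays and 6 with 2-fold; lower, 1, became 0 with normexp or Gapdh and 2 with 2-fold. Over all genes, normexp gave 612 higher and 660 lower, 2-fold gave 3319 and 3918, and only probes on both arrays gave 758 higher.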
